A study of Drosophila melanogaster with 8 samples.

Results

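The nuclear genes of the mitochondrial respiratory chain were followed through the midguts of old female flies fed quercetin (Que) or its solvent. Members were taken by name from the deposited table: features whose symbol begins with ND-, Sdh, UQCR, COX4 to COX8 or ATPsyn and whose exons lie on nuclear chromosomes. The rule found 77 of the 19299 features. Of these, 63 were main forms and 14 were paralogs whose symbol carries a closing L. Complex I held 38 members (34 main forms), complex II 7 (5 main forms), complex III 7 (6 main forms), complex IV 11 (7 main forms) and complex V 14 (11 main forms). The main forms are spread over the genome, with 12 on chromosome X, 12 on 2L, 11 on 2R, 12 on 3L, 14 on 3R and 2, ND-49 and ATPsynbeta, on chromosome 4.

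The respiratory chain sits in the inner mitochondrial membrane. Complexes I and II pass electrons from NADH and from succinate to ubiquinone, complex III passes them on to cytochrome c, complex IV to oxygen, and complex V, the ATP synthase, uses the proton gradient built on the way to make ATP. Complex II is built from nuclear genes alone, whereas the other complexes also hold subunits encoded by mitochondrial DNA. In flies, several nuclear subunits have a second gene copy that is known for expression in the testis.

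RNA-seq was performed on 8 samples of wild-type (WT) female intestines, 4 from flies given 10 µM Que and 4 from flies given DMSO, the solvent. The flies were fed from day 26 for 14 days and were 40 days old in the study's methods, while the sample labels give 40 to 50 days. Each sample pooled 200 midguts, so every value is a mean over enterocytes, enteroendocrine cells, progenitors and visceral muscle, and fewer cells of a type cannot be told apart from less RNA per cell. Nothing states whether the 4 samples of a group came from separate fly cultures, so the p-values measure the spread between these samples only.

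Values are RPKM, in which a gene's reads are divided by its exonic length in kilobases and scaled to 1000000 assigned reads. Between 27253832 and 35619139 reads were assigned per sample. The enterocyte markers summed to 7977 to 10384 RPKM with DMSO and 9398 to 11685 RPKM with Que, with all 10 markers detected. All 14 visceral muscle markers were also detected, and they summed to 1118 to 1582 RPKM with DMSO and 1180 to 2020 RPKM with Que. The ovary markers found, 8 of 9, were near 0, with sums of 5.37 to 8.29 RPKM with DMSO and 4.16 to 4.96 RPKM with Que. Fold changes are on the log2(RPKM + 0.1) scale and were tested with limma over the 13249 genes whose mean reached 0.1 RPKM.

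The members spanned a wide range of levels. Of the 77 members, 68 passed the filter on low values, 62 main forms and 6 paralogs. Among the 62 main forms, the mean level over the 8 samples ran from 7.56 RPKM for ATPsyndelta to 1075 RPKM for COX6B, with a median of 66.5 RPKM, against a median of 4.59 RPKM over all genes tested. Of these 62, 21 were above 100 RPKM and 5 under 20 RPKM. Complex IV had the highest median level (275 RPKM), followed by complex V (163 RPKM), complex I (54.7 RPKM), complex III (43.0 RPKM) and complex II (30.1 RPKM). In the order of mean levels, all 61 pairs of neighbours had overlapping ranges, and in 10 pairs the upper gene was higher in all 8 samples. Together the members took 0.742% to 0.849% of the assigned reads with DMSO and 0.750% to 0.9753% with Que.

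**Figure D1:**
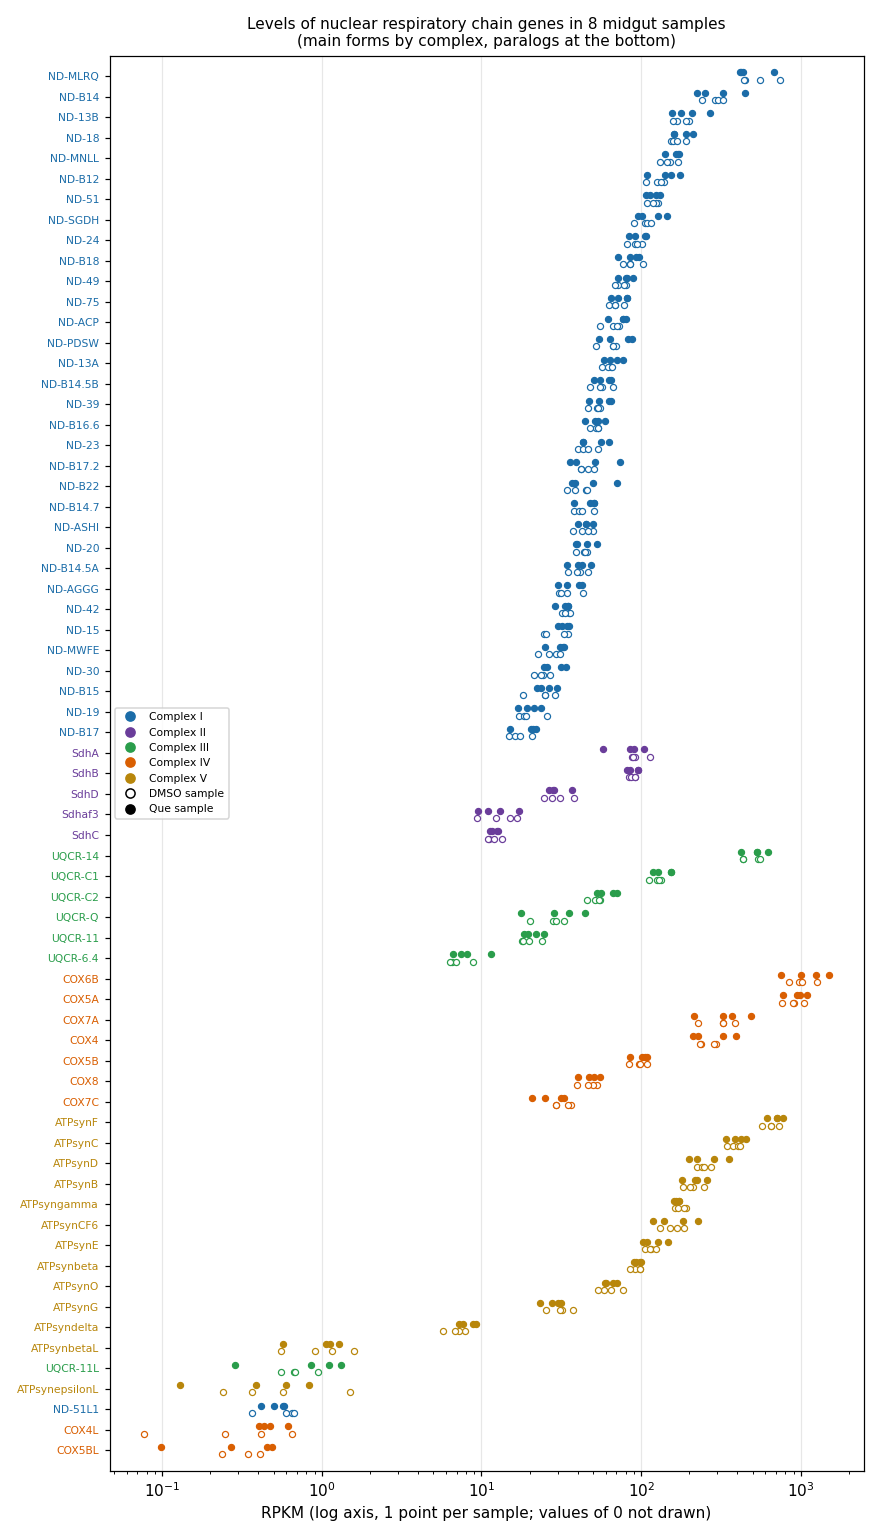
RPKM of the 62 main forms and 6 paralogs that passed the filter, on a log axis, with 1 point per sample (open, DMSO; filled, Que). Main forms lie between 7.56 RPKM (ATPsyndelta) and 1075 RPKM (COX6B) on average, the paralogs lie near or under 1 RPKM, and the points of the groups overlap in every gene.

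Levels differed widely between subunits of the same complex. In complex V, ATPsynF, a small subunit of the membrane part, stood at a mean of 675 RPKM and ATPsynC, the subunit of the rotating ring, at 393 RPKM. The catalytic subunit ATPsynbeta stood at 94.2 RPKM, whereas blw, its alpha partner in the catalytic head, stood at 472 RPKM. ATPsyndelta, which belongs to the central stalk, was the lowest by RPKM, with 7452 reads in all 8 samples over its 3817 exonic bases. By contrast UQCR-6.4 of complex III, at 7.78 RPKM, had 1132 reads over 561 bases. Of the exonic bases of ATPsyndelta, 35.6% overlap CG2962 on the opposite strand, which had 612 reads. In complex II, SdhA (89.8 RPKM) and SdhB (88.8 RPKM), the flavoprotein and the iron-sulfur subunit, had nearly equal means. The membrane anchors SdhC (12.0 RPKM) and SdhD (30.1 RPKM) were lower, as was the assembly factor Sdhaf3 (13.05 RPKM), which the naming rule also takes in.

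One main form was almost without reads. ND-B8, whose mammalian homolog is the complex I subunit NDUFA2, had 9 reads in all 8 samples (0 to 3 per sample, chromosome 2L, 4454626 to 4455207). The lowest of the other 33 main forms of complex I, ND-B17, had a mean of 18.4 RPKM. Of the 460 exonic bases of ND-B8, 71 overlap Gs1l on the opposite strand. What keeps the reads of ND-B8 low was not tested.

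Some members cannot be separated from overlapping features. The library kit keeps the strand, but the strand setting of the counting is not given in the sources used here. There were 29 members that shared exonic bases with a feature on the opposite strand and 6 with one on the same strand. ND-MNLL lies wholly within CG45089 and both had 29108 reads. UQCR-14 lies wholly opposite to CG32576, and they had 68637 and 70363 reads. Their log2 ratios of Que 3 to Que 1 were 0.22 and 0.21. By contrast, ND-B8 had 9 reads, with 71 of its bases opposite to Gs1l, which had 66278 reads. Whether reads of the opposite strand entered the members' values was not tested. The values of overlapping members are therefore uncertain, and the 31 main forms that share no exonic base with any feature are given beside the main counts.

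No member passed the test between Que and DMSO. With limma, 0 of 68 members had a Benjamini-Hochberg adjusted p under 0.05, and the same holds for 0% of the 13249 genes tested. At an unadjusted p under 0.05 there were 0 of 68 members, with limma on RPKM and with voom on the recovered reads, against 3.62% of all genes. In 0 members did the groups fail to overlap, whereas among all genes 0.876% had all Que samples higher and 1.26% had all Que samples lower. The smallest unadjusted limma p of a member belonged to UQCR-C2 (adjusted p = 0.946).

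The main forms nonetheless leaned to one side by a small amount. The log2 fold change was above 0 in 52 of 62 main forms, against 47.0% of all genes, with a median of 0.08 against -0.02 for all genes. The range was -0.26 (COX7C) to 0.26 (ND-30). By complex, 29 of 33 main forms were above 0 in complex I (median 0.11), 2 of 5 in complex II (-0.01), 6 of 6 in complex III (0.13), 6 of 7 in complex IV (0.07) and 9 of 11 in complex V (0.05). Among the 31 main forms with no shared base the count was 28 and the median 0.09. The visceral muscle markers leaned the same way, with 12 of 14 above 0 and a median of 0.20. So did the enterocyte markers (7 of 10, median 0.10) and the enteroendocrine markers (9 of 12, median 0.08). Of the progenitor markers 2 of 9 were above 0 (median -0.18), and of the fat body markers 2 of 7 (median -0.05). The part of these cell types in the members' lean was not tested. The main forms share the same 8 samples and move together between them, so the counts describe these samples. Without Que 3 the median fell to 0.02, with 37 main forms above 0, and without Que 2 it was 0.15, with 56 above 0. Removing each sample's trend on gene length gave a median of 0.04 with 41 above 0, and leaving out DMSO 2 gave 0.05 with 39 above 0.

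The intervals limit how large a change could have been missed. The standard error of the main forms ran from 0.08 to 0.27 on the log2 scale, with a median of 0.13. In 54 of 62 main forms the 95% confidence interval lay within a 1.5-fold change in either direction, and in all 62 within a 2-fold change. In complex V this held at 1.5-fold for 11 of 11 main forms, and in complex IV for 4 of 7.

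**Figure D2:**
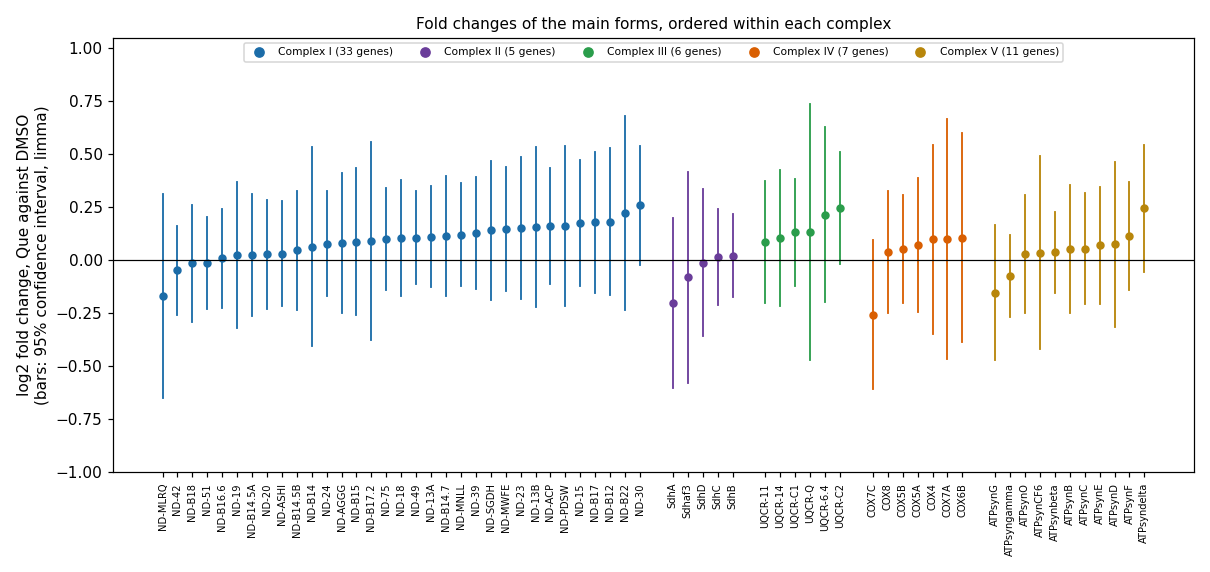
Log2 fold changes of the 62 main forms, Que against DMSO, with 95% confidence intervals from limma, ordered within each complex. Every interval includes 0, and the widest upper limit belongs to UQCR-Q at 0.74.

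Complex I takes electrons from NADH and is the largest complex, with 33 main forms tested. The 7 core subunits made in the nucleus, which form the electron path from NADH to ubiquinone (ND-75, ND-51, ND-24, ND-49, ND-30, ND-20 and ND-23), had fold changes of -0.01 to 0.26, with 6 above 0 and a median of 0.10. The 26 accessory subunits had a median of 0.11, with 23 above 0.

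ND-30, the core subunit whose mammalian homolog is NDUFS3, had the smallest p of complex I. It stood at 26.9, 21.4, 24.4 and 23.7 RPKM in DMSO 1 to 4 and at 25.9, 24.8, 33.8 and 31.6 RPKM in Que 1 to 4. Que 3 and Que 4 lay above all DMSO samples, while Que 1 and Que 2 lay within the DMSO range. The means were 24.1 ± 2.24 RPKM with DMSO and 29.0 ± 4.36 RPKM with Que (SD, n = 4 each). The log2 fold change was 0.26 (standard error 0.13, 95% confidence interval -0.02 to 0.54, limma adjusted p = 0.946), and the exact two-sided permutation test gave p = 0.114. With 4 samples against 4 that test cannot go below 0.0286.

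ND-15, an accessory subunit, followed with 35.0, 24.7, 32.6 and 25.4 RPKM in DMSO 1 to 4 and 35.2, 29.9, 34.5 and 32.0 RPKM in Que 1 to 4. The DMSO samples fell into a higher and a lower pair, and all Que samples lay above the lower pair. Its log2 fold change was 0.18 (standard error 0.13).

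ND-MLRQ had the highest level of complex I. Its name comes from complex I, although its mammalian homolog NDUFA4 was later assigned to complex IV. It stood at 742, 449.8, 559 and 441 RPKM in DMSO 1 to 4 and at 682, 435, 422 and 414 RPKM in Que 1 to 4. DMSO 1 and Que 1 were the highest samples of their groups, with 3 Que samples below all DMSO samples. The log2 fold change of -0.17 had a standard error of 0.21, and it was -0.01 without DMSO 1 and -0.34 without Que 1.

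Complex II oxidises succinate and links the citric acid cycle to the chain. Its catalytic subunit SdhA stood at 114, 91.1, 87.3 and 88.8 RPKM in DMSO 1 to 4 and at 104, 90.5, 57.7 and 85.0 RPKM in Que 1 to 4. The high DMSO 1 and the low Que 3 set most of the difference, a log2 fold change of -0.20 (standard error 0.18, 95% confidence interval -0.60 to 0.20). Without Que 3 the value was -0.03. SdhB, its iron-sulfur partner, varied little, from 81.5 to 96.2 RPKM over the 8 samples, with a log2 fold change of 0.02. The assembly factor Sdhaf3 ranged from 9.44 RPKM (DMSO 2) to 17.2 RPKM (Que 3), with a log2 fold change of -0.08, and its direction turned without DMSO 1 (0.03) or without Que 2 (0.05). The 11 citric acid cycle genes tested had a median of -0.01, with 5 above 0 and 0 at an unadjusted p under 0.05.

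Complex III oxidises ubiquinol. UQCR-C2, one of its core proteins on the matrix side, had the smallest p of all members. It stood at 54.9, 45.6, 51.2 and 54.4 RPKM in DMSO 1 to 4 and at 56.0, 52.7, 70.6 and 66.4 RPKM in Que 1 to 4. Que 1, Que 3 and Que 4 lay above all DMSO samples, and Que 2 lay within their range. The means were 51.5 ± 4.30 RPKM with DMSO and 61.4 ± 8.46 RPKM with Que (SD, n = 4 each). Its log2 fold change was 0.25 (standard error 0.12, 95% confidence interval -0.02 to 0.51, limma adjusted p = 0.946), with p = 0.114 in the exact two-sided permutation test. The other core protein, UQCR-C1, had 127 and 118 RPKM in Que 1 and Que 2 and 153 RPKM in both Que 3 and Que 4, against 113 to 134 RPKM with DMSO. Its log2 fold change was 0.13 (standard error 0.11).

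UQCR-14, which binds ubiquinone in mammals, was the highest of complex III, at 538, 432, 551 and 435 RPKM in DMSO 1 to 4 and 533, 424, 621 and 531 RPKM in Que 1 to 4 (log2 fold change 0.10, standard error 0.14). Its Que samples held both the highest and the lowest value of the 8. UQCR-6.4, a small accessory subunit, stood at 8.83, 6.56, 6.89 and 6.32 RPKM with DMSO and 11.5, 6.67, 7.39 and 8.12 RPKM with Que. Que 1 alone lay above the DMSO range, the log2 fold change was 0.22 (standard error 0.18), and without Que 1 it was 0.06. In UQCR-6.4, 40.5% of the exonic bases overlap POSH on the opposite strand.

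Complex IV reduces oxygen, and its nuclear subunits surround the catalytic core made in the mitochondrion. COX6B, which faces the intermembrane space, was the most abundant member. It stood at 842, 975, 1013 and 1266 RPKM in DMSO 1 to 4 and at 749.6, 1006, 1507 and 1243 RPKM in Que 1 to 4. Its Que samples differed 2.01-fold among themselves and enclosed the whole DMSO range. Its log2 fold change was 0.11 (standard error 0.22), and without Que 3 it was -0.05.

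COX7C, a small membrane subunit, was the lowest of the 7 main forms of complex IV and the only one with a fold change below 0. It stood at 36.2, 35.0, 29.2 and 29.5 RPKM in DMSO 1 to 4 and at 31.4, 32.7, 20.8 and 24.9 RPKM in Que 1 to 4. Que 3 and Que 4 lay below all DMSO samples. The difference was -0.26 on the log2 scale (standard error 0.16, 95% confidence interval -0.61 to 0.09), with p = 0.2 in the exact two-sided permutation test. Without Que 3 it was -0.13. Of its 853 exonic bases, 134 overlap oys on the opposite strand, which had 86467 reads over the 8 samples against 6715 for COX7C. The fold change of oys was -0.21. COX5A stood at 1049, 761, 908 and 893 RPKM with DMSO and 1089, 779, 985 and 946 RPKM with Que. The first sample of each group was the highest and the second the lowest, with a log2 fold change of 0.07 (standard error 0.14) that was -0.01 without DMSO 2.

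Complex V makes ATP. ATPsyndelta had its smallest p. The gene stood at 7.94, 5.75, 7.18 and 6.80 RPKM in DMSO 1 to 4 and at 7.63, 7.19, 9.19 and 8.83 RPKM in Que 1 to 4. Que 3 and Que 4 lay above the DMSO range, and DMSO 2 lay below all others. The log2 fold change was 0.25 (standard error 0.13, 95% confidence interval -0.05 to 0.55). CG2962, which shares bases with it, had a fold change of -0.42. ATPsynG, a subunit of the membrane part, stood at 37.5, 25.2, 32.0 and 31.1 RPKM with DMSO and 31.5, 23.4, 30.2 and 27.6 RPKM with Que, a log2 fold change of -0.15 (standard error 0.14). Replicate 2 was the lowest sample in both groups for ATPsynG. ATPsynF, the most abundant, stood at 648, 569.9, 647 and 727 RPKM with DMSO and 769, 617, 708 and 714 RPKM with Que, with only Que 1 above the DMSO range (log2 fold change 0.12, standard error 0.11). The 4 subunits of the peripheral stalk, which holds the catalytic head in place (ATPsynB, ATPsynD, ATPsynCF6 and ATPsynO), had fold changes of 0.03 to 0.07.

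The paralogs were rare in these female midguts. Of the 14, only 6 passed the filter, with means of 0.288 RPKM (COX5BL) to 1.03 RPKM (ATPsynbetaL). Where a main form exists under the same name, its level was 25.6-fold (UQCR-11 over UQCR-11L) to 665-fold (COX4 over COX4L) that of a paralog that passed. The 8 paralogs that did not pass had 1 to 15 reads in all 8 samples: SdhBL and ND-49L with 15 each, COX6AL and COX7AL with 11 each, ND-51L2 with 8, SdhAL and ND-B14.5AL with 2 each and ATPsynCF6L with 1. The testis markers found, 15 of 17, had a median of 0.0173 RPKM and summed to 4.58 to 5.49 RPKM with DMSO and 3.62 to 5.27 RPKM with Que.

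COX4L stood at 0.650, 0.0769, 0.246 and 0.419 RPKM with DMSO and 0.610, 0.477, 0.402 and 0.433 RPKM with Que, from 2 to 16 reads per sample. The DMSO samples enclosed the Que range, and the log2 fold change of 0.55 had a standard error of 0.42. It was 0.17 without DMSO 2 and 0.15 with a pseudocount of 1. COX5BL, which lies wholly opposite to CG9596, had 0 reads in DMSO 3, which allows up to 3 reads, and up to 10 reads in the other samples. Its fold change of 0.41 (standard error 0.57) turned to -0.11 without DMSO 3.

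UQCR-11L ranged from 0.287 to 1.33 RPKM with Que and from 0.552 to 0.951 RPKM with DMSO (log2 fold change 0.16, standard error 0.39). ND-51L1 ranged from 0.415 to 0.582 RPKM with Que and from 0.367 to 0.671 RPKM with DMSO (-0.10, standard error 0.24). ATPsynbetaL ranged from 0.570 to 1.27 RPKM with Que and from 0.552 to 1.59 RPKM with DMSO (-0.02, standard error 0.33). In all of them the groups overlapped. ATPsynepsilonL ranged from 0.130 to 0.8289 RPKM with Que and from 0.242 to 1.497 RPKM with DMSO (-0.31, standard error 0.56), and DMSO 4 was its highest sample.

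Samples of the same group also differed. Over all 8 samples of both groups, the ratio of the highest to the lowest ran from 1.18 (ATPsynbeta) to 2.503 (UQCR-Q), with a median of 1.43. Que 3 was the highest sample in 37 of 62 main forms, DMSO 1 in 13 and Que 1 in 9. DMSO 2 was the lowest in 28, Que 2 in 12 and Que 1 in 10. As a median over the main forms, the deviation from the gene's own mean on the log2 scale was 0.07, -0.21, -0.02 and -0.0033 in DMSO 1 to 4 and 0.04, -0.17, 0.20 and 0.10 in Que 1 to 4. Que 2 and Que 3, samples of the same group, were thus farther apart on this median than the median fold change of 0.08 between the groups.

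**Figure D3:**
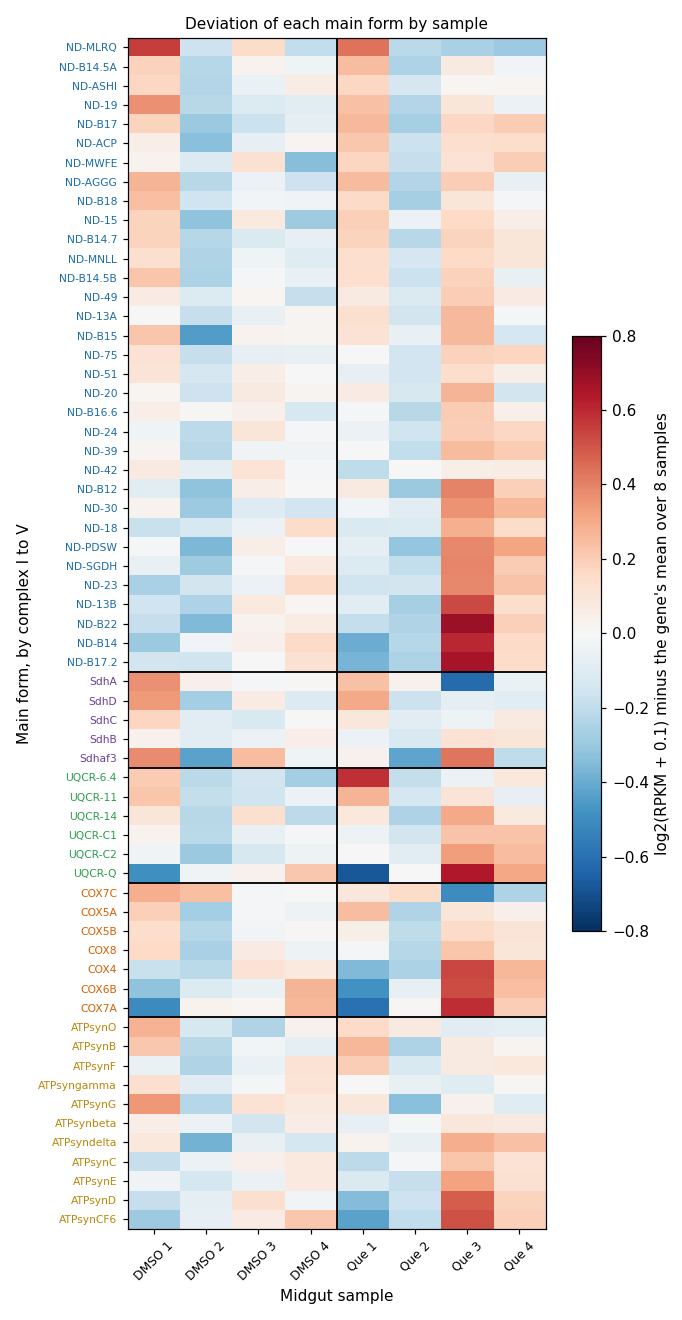
Log2 deviation of each of the 62 main forms from its mean over the 8 samples, by complex and ordered within it by the difference between Que 3 and Que 1. The DMSO 2 and Que 2 columns are mostly blue (median deviations -0.21 and -0.17), Que 3 is mostly red (0.20), and a few genes in DMSO 1 and Que 1 go against the rest of their column.

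The members did not follow this pattern alike. Complexes I, III and IV were lowest in DMSO 2, with medians of -0.22, -0.22 and -0.21, and highest in Que 3, with medians of 0.20, 0.26 and 0.22. Complex V moved less, from -0.13 in DMSO 2 to 0.09 in Que 3. Complex II was highest in DMSO 1 (0.34) and stood at -0.04 in Que 3.

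**Figure D4:**
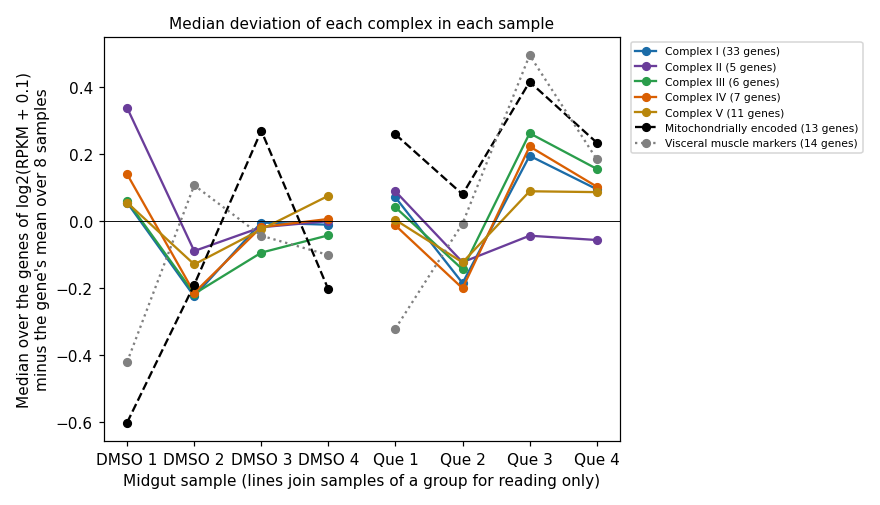
Median log2 deviation of each complex in each sample, with the 13 mitochondrially encoded genes (dashed) and the 14 visceral muscle markers (dotted). Complexes I, III and IV dip in DMSO 2 and Que 2 and peak in Que 3, while complex II peaks in DMSO 1 at 0.34.

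Genes were ordered alike by a difference between samples of the Que group and one between samples of the DMSO group. The log2 ratio of Que 3 to Que 1 ran from -0.85 (SdhA) to 1.32 (UQCR-Q) over the 62 main forms, with 40 above 0 and 4 above a 2-fold difference. The log2 ratio of DMSO 4 to DMSO 1 ran from -0.75 (ND-MLRQ) to 0.78 (COX7A). Its median was -0.12, against 0.18 for the Que pair, and the medians of complexes I, III and IV also had opposite signs. Both ratios were above 0 in 22 main forms and below 0 in 21. These sample pairs were chosen after the values were seen. Across the 62 genes, which are not independent, the 2 ratios had a Pearson r of 0.846 and a Spearman rho of 0.778. Over all 6466 genes at a mean of 5 RPKM or more they had an r of 0.662 and a rho of 0.686, so the relation was not limited to the members.

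The genes at its ends, chosen after their values were seen, were subunits of several complexes. UQCR-Q, a small subunit of complex III, stood at 20.2, 27.9, 29.2 and 33.0 RPKM in DMSO 1 to 4 and at 17.7, 28.3, 44.4 and 35.3 RPKM in Que 1 to 4. COX7A, a small subunit of complex IV, stood at 226, 328, 326 and 388 RPKM with DMSO and 213, 325, 485 and 369 RPKM with Que. Both were lowest in DMSO 1 and Que 1, and ND-B14, COX6B and ATPsynCF6 had the same order at these ends. SdhA, ND-MLRQ and COX7C lay at the other end, with DMSO 1 as the highest of the 8 samples in each.

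Marker sums also differed between these samples, in both directions. The visceral muscle markers summed to 1118 RPKM in DMSO 1 and 1378 RPKM in DMSO 4, and to 1180 RPKM in Que 1 and 2020 RPKM in Que 3. Among the DMSO samples the muscle sum was highest in DMSO 2 (1582 RPKM). The 7 fat body markers summed to 69.4 RPKM in DMSO 1 and 132.7 RPKM in DMSO 4, and to 63.1 RPKM in Que 1 and 158 RPKM in Que 3. Their median log2 deviations in these samples were 0.08, 0.26, -0.37 and 0.31. In the DMSO pair the sum did not stand for each marker. The log2 ratio of DMSO 4 to DMSO 1 was 0.03 for Yp1, -0.18 for Yp2 and 0.18 for Yp3. In the Que pair these genes rose with the sum, with log2 ratios of Que 3 to Que 1 of 0.67, 1.40 and 0.98. The 7 Malpighian tubule markers summed to 46.9, 67.7, 45.4 and 57.4 RPKM in the same 4 samples. The enterocyte, enteroendocrine, progenitor and ovary sums were lower in DMSO 4 than in DMSO 1 and in Que 3 than in Que 1. Their median log2 deviations did not all follow. Those of the enterocyte and enteroendocrine markers were higher in Que 3 (0.13 and 0.07) than in Que 1 (0.08 and 0.05). That of the progenitor markers was higher in DMSO 4 (0.02) than in DMSO 1 (0.0035). The other medians of these lists fell like the sums. The testis sum was higher in DMSO 4 than in DMSO 1 but lower in Que 3 than in Que 1.

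A trend on gene length also differed between the samples. The correlation of a gene's deviation with its length was 0.48 in DMSO 2 and 0.52 in Que 2 (Spearman rho over 8783 genes), and it was -0.30 in Que 1 and -0.38 in Que 3, -0.04 in DMSO 1 and 0.15 in DMSO 4. The main forms are short, with a median length of 862 bases against 1667 for all genes tested. With each sample's length trend removed, the medians of the main forms were -0.08 in DMSO 2, -0.05 in Que 2 and 0.10 in Que 3. The part of the muscle and fat body markers in the members' values was not tested.

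**Figure D5:**
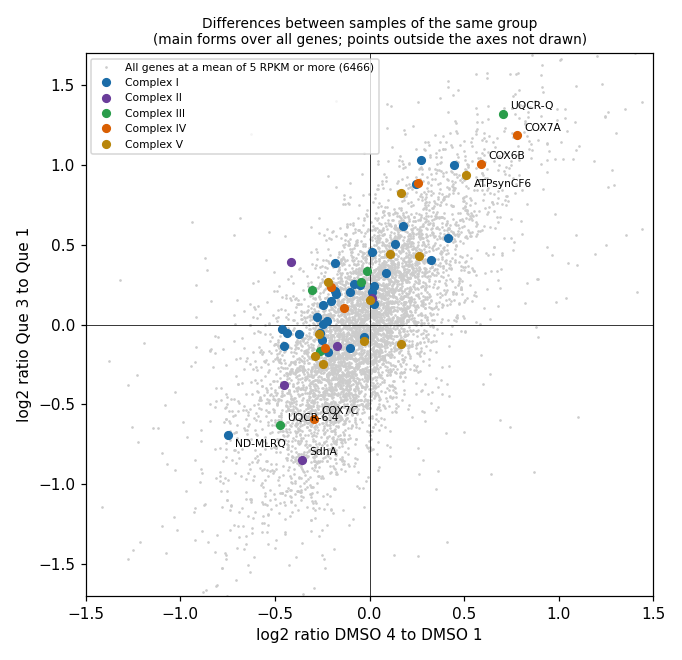
Log2 ratio of Que 3 to Que 1 against the log2 ratio of DMSO 4 to DMSO 1 for the 62 main forms, coloured by complex, over all 6466 genes at a mean of 5 RPKM or more (grey). UQCR-Q, COX7A, COX6B and ATPsynCF6 lie at the upper right, and SdhA, ND-MLRQ, UQCR-6.4 and COX7C at the lower left.

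The partners of these subunits were set beside them. The 8 nuclear subunits with other names had a median log2 fold change of 0.07, with 6 above 0 and 0 at an unadjusted p under 0.05. They were RFeSP, the iron-sulfur protein of complex III (174 RPKM, 0.16), Cyt-c1 (223 RPKM, 0.06), ox (204 RPKM, -0.06), levy (325 RPKM, 0.14), cype (22.5 RPKM, 0.0031), CG7630 (261 RPKM, -0.02), blw (472 RPKM, 0.08) and sun (194 RPKM, 0.10). For cytochrome c, the carrier between complexes III and IV, the somatic gene Cyt-c-p stood at 577 RPKM (0.05) and Cyt-c-d at 1.06 RPKM (0.29). The 13 assembly factors and related genes tested had a median of 0.08, with 9 above 0. One of the 13, Uqcc1, which takes part in assembling complex III, had an unadjusted p under 0.05, against 3.62% of all genes. It stood at 3.27, 4.25, 2.66 and 3.47 RPKM with DMSO and at 5.61, 4.84, 4.53 and 4.45 RPKM with Que, all higher (log2 fold change 0.51, standard error 0.16, limma adjusted p = 0.946). Among all genes, 0.876% had all Que samples higher. The 73 mitochondrial ribosomal protein genes had a median of 0.09, with 60 above 0. Of these 73, 1 had an unadjusted p under 0.05, again against 3.62% of all genes.

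The mitochondrially encoded subunits of the same complexes had larger fold changes and a different order of samples. Their median was 0.49 over 13 genes, with 12 above 0. With limma, 4 had an unadjusted p under 0.05, against 3.62% of all genes, and 0 an adjusted one. These genes share the same 8 samples, so the counts describe these samples. By complex the median was 0.58 over 7 genes of complex I and 0.22 for CYTB of complex III. It was 0.31 over 3 genes of complex IV and 0.53 over 2 genes of complex V. The nuclear main forms had 0.11, 0.13, 0.07 and 0.05 in these complexes. In complex I, ND2, ND3, ND4L and ND6 were low, at 1.35 to 7.25 RPKM. The others were uneven, with 0.09 for ND4 (537 RPKM), 1.11 for ND1 (419 RPKM) and 0.58 for ND5 (215 RPKM). DMSO 1 was the lowest sample of the mitochondrially encoded genes, with a median deviation of -0.60, whereas the nuclear main forms stood at 0.07 there. Without DMSO 1 the mitochondrial median was 0.28. The difference between nuclear and mitochondrial genes was not tested.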

How the data were processed

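Per the labels and the study's methods, the authors trimmed the reads (Trimmomatic 0.36), collapsed them to consensus sequences, mapped them to the ISO1 genome (STAR 2.5.3a), counted them per gene with featureCounts and deposited RPKM. Summed over genes, RPKM times length in kilobases gave 1000000 in every sample, and 100% of values came out as whole reads (tolerance 0.01 reads). Depth was 27253832 to 35619139 assigned reads, and a floor of 3 reads covers counting error only. Columns were assigned to groups by name, Ctrl being read as DMSO.

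The members and lists were chosen with earlier results of these data known. Named genes were, per complex, the most abundant main form and the 2 of smallest p, and every paralog that passed the filter. Genes at a mean of at least 0.1 RPKM (13249) were tested as log2(RPKM + 0.1) with limma 3.58.1 in R 4.3.3 (intensity trend, two-sided, Benjamini-Hochberg), and the script was tested on simulated data. SciPy 1.17.1 gave the exact permutation tests and matplotlib 3.10.9 the plots, with pandas 2.3.3 and NumPy 2.4.6 (Python 3.11.15). All 77 members had the same start and end as the RefSeq gene of that symbol (Release 6 plus ISO1 MT). Alternatives covered pseudocount, filter, scaling, empirical Bayes, array weights, voom, the length trend (loess span 0.5), the replicate number as a block, a term for replicates 1 and 2 against 3 and 4, and each sample left out. Sequences and promoter motifs were not used here.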

Additional observations from a re-analysis of the deposited data

Results flagged for a closer look

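SdhA in the DMSO group was looked at again because 1 sample stood far from the others. DMSO 1 had 113.9 RPKM and the other 3 DMSO samples 87.27 to 91.06 RPKM, a gap of 0.858 of the group's range. ND-MLRQ in the Que group had 681.7 RPKM in Que 1 and 413.5 to 435.3 RPKM in the other 3 samples, a gap of 0.919 of the range. Both gaps exceed Dixon's 95% critical value for 4 samples. Over the 52 groups of samples examined, a rate of 1 in 20 gives 2.6, and 2 were found. The groups share the same 8 samples and some genes were named for a small p, so 2.6 is a rough guide only.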

How the results depend on the processing

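No member had an adjusted p under 0.05 under any alternative run, with a smallest adjusted p of 0.429 (array weights, limma). The count of all genes at an adjusted p under 0.05 rose from 0 to 2 without the filter, 3 without the intensity trend and 2 with array weights, and was 0 to 3 with 1 sample left out. The count of members at an unadjusted p under 0.05 rose from 0 to 2 with median-of-ratios scaling, 1 with quantile normalization, 3 with array weights, 1 with the length trend removed, 3 with a term for replicates 1 and 2 against 3 and 4, and 0 to 4 with 1 sample left out. The share of all genes in these settings was 3.62%, 3.74%, 10.6%, 4.03%, 5.22% and 2.72% to 9.02%, and the members' share was lower in each. ND-30 or UQCR-C2 was among them in each of these settings that gave any. With the replicate block, 5 of 68 members (7.35%) passed (COX7C, ND-B12, ND-ACP, ND-30 and UQCR-C2), against 8.43% of all genes. After each gene's group mean was subtracted, the remaining deviations of same-numbered samples correlated at 0.23, 0.12, 0.01 and 0.03 over the 13249 genes. DMSO 1 and DMSO 2 each correlated most with the Que sample of their own number, and DMSO 3 and DMSO 4 each correlated more with another number. Whether same-numbered samples share a batch was not tested. Leaving out 1 sample moved the medians of complex I to between 0.03 (without Que 3) and 0.17 (without Que 2), of complex III to between 0.07 and 0.20 (the same samples), of complex IV to between -0.05 and 0.13, of complex V to between -0.01 and 0.11 and of complex II to between -0.11 and 0.05. The fold changes of UQCR-14 (0.02 to 0.21), ND-15 (0.10 to 0.26), ATPsynG (-0.25 to -0.06), ATPsynF (0.06 to 0.18) and ND-51L1 (-0.27 to -0.02) kept their direction but moved by over 1.5 times. Directions of single genes turned for COX6B (-0.049 to 0.29), COX5A (-0.0070 to 0.16), Sdhaf3 (-0.24 to 0.045), COX5BL (-0.11 to 0.74), UQCR-11L (-0.062 to 0.56), ATPsynepsilonL (-0.61 to 0.13) and ATPsynbetaL (-0.27 to 0.20, and 0.17 with array weights), and the cause was not tested. Depth limits the paralogs, which rest on 0 to 108 reads per sample.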

Other observations

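Some paralogs carry systematic names in the deposited table and were therefore outside the rule on names. CG34172 (COX7AL2) had a mean of 0.111 RPKM, CG44296 (COX7CL) 0.182 RPKM, CG43206 (UQCR-6.4L) 0.430 RPKM and CG14077 (COX6AL2) 0.402 RPKM over the 8 samples. All of them lay in the range of the paralogs that the rule took in.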
